A study of Mus musculus with 12 samples.

Results

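Colony-stimulating factors and their receptors were followed in bone marrow-derived macrophages (BMDMs) of WT and Pim1-/- mice, before and after lipopolysaccharide (LPS). The members were taken by gene symbol from the deposited tables: the ligands Csf1, Csf2 and Csf3 and the receptor genes Csf1r, Csf2ra, Csf2rb, Csf2rb2 and Csf3r, or 8 genes of 23997. RNA-seq was carried out on 12 libraries, with 3 in each of 4 groups, and expression is given as FPKM, read fragments scaled to transcript length and library size. The groups were untreated WT, untreated Pim1-/-, LPS-treated WT and LPS-treated Pim1-/- BMDMs, where LPS was given at 100 ng/ml for 4 h. All mice were male, 8 to 10 weeks old and of the C57BL/6 strain, and the Pim1 allele was deleted in the germ line by CRISPR/Cas9. Marrow cells of all groups were kept for 1 d in medium with 20% FBS, and the nonadherent cells were then grown for 7 d with macrophage colony-stimulating factor (M-CSF), human and recombinant, at 10 ng/ml, the protein that the Csf1 gene encodes, so every culture held added ligand of Csf1r. The labels do not say whether the 3 libraries of a group came from separate mice or cultures, so p-values measure only the spread between these libraries, which may be technical.

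M-CSF binds the receptor tyrosine kinase encoded by Csf1r and carries the survival, growth and differentiation of macrophages. GM-CSF, encoded by Csf2, signals through a ligand-specific alpha chain (Csf2ra) and a common beta chain (Csf2rb), which the receptors for interleukin-3 and interleukin-5 also use, whereas the mouse-specific Csf2rb2 chain serves interleukin-3. G-CSF, encoded by Csf3, acts through Csf3r on the neutrophil lineage, and LPS is a classical inducer of all of these ligands.

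Pim1, the targeted gene, was checked first. It measured 25.0, 21.5 and 22.3 FPKM in untreated WT and 8.70, 8.00 and 9.51 FPKM in untreated Pim1-/- libraries, and 665, 630 and 641 FPKM against 216, 205 and 236 FPKM after LPS. Each Pim1-/- library thus lay below each WT library of the same treatment, at 38.1% of the WT mean without LPS and 33.9% with it, and reads from the gene were still present. Values for single exons were not analysed here. Of 12 macrophage marker genes, 11 reached 10 FPKM in at least 1 group, and their summed level ran from 30636 to 32825 FPKM in untreated WT, from 15606 to 16427 in untreated Pim1-/-, from 35091 to 35622 in LPS-treated WT and from 17180 to 19166 in LPS-treated Pim1-/- libraries. Most of this sum was Lyz2 (26302 FPKM in untreated WT and 13297 in untreated Pim1-/- cells). By group means without LPS, Cd14 was at 95.7% and Cd68 at 82.3% of WT. Itgam was at 62.0%, Emr1 at 57.3% and Lyz2 at 50.6%. Lower still were C1qc at 46.0%, C1qa at 37.3%, C1qb at 36.7%, Mrc1 at 35.6%, Mertk at 29.8% and Fcgr1 at 29.2%. Csf1r, described below, was at 33.3%. Without LPS 10 of the 11 markers tested were lower by FDR, against 44.2% of all genes, and 6 were called lower, against 3.37%. No neutrophil marker reached 10 FPKM, and outside the macrophage list the genes that did were H2-Ab1, H2-Aa, H2-Eb1, Cd34, Gfi1, Hdc, Il7r, Kdr and Pf4, each from a list of another cell type. Of these, Cd34, from the progenitor list, had means of 0.844 FPKM in untreated WT and 11.5 FPKM in untreated Pim1-/- cells. After LPS its means were 0.564 and 5.53 FPKM. Of 10 progenitor genes listed 4 were tested. By FDR 2 were higher and 0 lower in untreated Pim1-/- cells, against 34.6% and 44.2% of all genes. After LPS 1 was higher and 1 lower, against 37.6% and 43.4%. The column sums were between 452511 and 489710 FPKM in untreated and between 713307 and 849323 FPKM in LPS-treated libraries. In bulk RNA, fewer cells of a type and less RNA per cell cannot be told apart, which holds for every value below.

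Sequences are shown for the ligands, whose RNA was low or listed at 0 without LPS, and for both beta chains, whose reads could be exchanged. The ligand genes carry ATTTA pentamers in their 3′ UTRs, the element that decay proteins of the tristetraprolin family bind. Csf2 (chr11:54247271-54249667, minus strand) had 9 pentamers in a 3′ UTR of 317 bases, Csf3 (chr11:98701263-98703629, plus strand) had 6 in 669 bases and Csf1 (chr3:107741048-107760469, minus strand) had 4 in 2111 bases, all in GENCODE M21 on GRCm38. Csf1r had 3 in 1669 bases, and Csf2ra, Csf2rb, Csf2rb2 and Csf3r had 0. The pentamer is common, being present in 66.8% of 17575 annotated mouse 3′ UTRs of at least 100 bases. The longer TATTTAT occurred at least 3 times in 3.93% of them, with 9 occurrences in Csf2, 2 in Csf3 and 1 in Csf1; both searches read the transcript strand and counted overlapping matches. The 30 bases with the most pentamers of each ligand are given with the pentamers in capitals.
Csf1: tttatataaggtcATTTAaatatctATTTA
Csf2: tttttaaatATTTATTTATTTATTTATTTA
Csf3: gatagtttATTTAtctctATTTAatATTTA

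The 250 bases before the start of Csf1 (chr3:107760470-107760719, minus strand, RefSeq on GRCm38.p6) are shown because Csf1 was among the members that rose in both genotypes with LPS. Capitals mark the only match to the NF-kappa B consensus (kappa B), on either strand, at positions -154 to -145 from the start. A looser form, with any 5 letters between GGG and CC, was searched first and is held by 45.4% of 27025 promoter windows of the same length; the consensus, held by 3.75%, was chosen after that share and the Csf1 matches had been seen, so its match is a description only. With the looser form Csf1 had 4 matches, 2 of which overlap, Csf2ra had 2 that overlap and Csf3r had 1.
Csf1 upstream: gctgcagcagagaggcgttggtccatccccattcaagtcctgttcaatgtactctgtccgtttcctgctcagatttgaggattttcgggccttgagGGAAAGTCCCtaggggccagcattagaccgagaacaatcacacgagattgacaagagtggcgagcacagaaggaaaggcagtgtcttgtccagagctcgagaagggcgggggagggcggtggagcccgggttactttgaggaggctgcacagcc

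Windows were also searched for Csf2, Csf2ra, Csf2rb2 and Csf3r, with none for Csf3, Csf2rb or Csf1r. GAGGAAG, letters bound by PU.1, was in 10.4% of all windows and was found in those of Csf2ra (2 overlapping matches), Csf2rb2 (1) and Csf3r (1). TTGCNNAA, letters bound by C/EBP factors, was in 9.55% and was found only in that of Csf2, and TGANTCA, the AP-1 letters, was in 6.87% and in none of the 5. Both strands were read each time. The Csf2 window lies before a RefSeq start that is 232 bases upstream of the GENCODE start. The windows of Csf3r and Csf2ra run 109 and 11 bases past the GENCODE start, so the Csf3r match and the nearer Csf2ra match lie within the GENCODE gene and the other Csf2ra match reaches it.

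Csf2rb (chr15:78325752-78353847, plus strand) and Csf2rb2 (chr15:78282507-78305721, minus strand) lie 20031 bases apart, and their coding sequences were identical at 95.2% of 2631 aligned bases. The longest identical run was 242 bases, and 26.0% of all 50-base and 11.0% of all 100-base stretches of the Csf2rb coding sequence also occur in Csf2rb2. How reads that match both genes were divided is not given in the sources used here, so values of either chain alone are uncertain. The first 150 coding bases are given with the 6 differing bases in capitals.
Csf2rb: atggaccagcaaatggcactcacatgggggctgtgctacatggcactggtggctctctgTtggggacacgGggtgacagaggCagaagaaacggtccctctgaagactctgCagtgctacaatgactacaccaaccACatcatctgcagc
Csf2rb2: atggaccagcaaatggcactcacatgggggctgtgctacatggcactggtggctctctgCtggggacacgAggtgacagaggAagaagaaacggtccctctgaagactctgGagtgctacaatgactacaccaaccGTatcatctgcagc

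Without LPS the 5 receptor genes had less RNA in Pim1-/- cells, most of all Csf3r and Csf1r, and no ligand was higher. Differences were tested with limma on log2(FPKM + 1), and a call needed a change of more than 2-fold, a p under 0.05 and an FDR under 0.1, adjusted by Benjamini-Hochberg over all 10581 genes tested. Of the 8 members 7 were tested. Csf3 did not reach 1 FPKM in 3 libraries, and Csf2 did so only through LPS-treated libraries. At these thresholds 2 of the 7 were called lower, where 3.37% of all genes were, and 0 were called higher, where 4.4% were. By FDR under 0.1 alone 6 were lower and 0 higher, against 44.2% lower and 34.6% higher among all genes.

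Csf1r (chr18:61100598-61132149, plus strand), the M-CSF receptor, measured 754, 747 and 791 FPKM in untreated WT and 239, 246 and 279 FPKM in untreated Pim1-/- libraries. The groups did not overlap, and the WT mean was 3.00-fold the Pim1-/- mean (764 ± 23.4 against 254 ± 21.3 FPKM, SD, n = 3). On the log2(FPKM + 1) scale Csf1r fell by 1.59 (SE 0.060, limma FDR = 2.3e-12). It overlaps Hmgxb3 on the other strand, whose group means stayed between 4.00 and 6.99 FPKM.

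Csf3r (chr4:126024550-126044440, plus strand), the G-CSF receptor, measured 16.1, 15.6 and 16.9 FPKM in untreated WT and 2.78, 3.25 and 2.97 FPKM in untreated Pim1-/- libraries. The groups again did not overlap, and Csf3r fell by 2.10 on the log2 scale (SE 0.055, limma FDR = 3.5e-14), to 18.6% of the WT mean. The 9 neutrophil markers in the files summed to between 3.07 and 3.46 FPKM in untreated WT and between 6.29 and 7.33 FPKM in untreated Pim1-/- libraries, and after LPS to between 7.33 and 10.0 and between 6.01 and 8.83 FPKM. They had no common direction: S100a8 and Mmp8 were higher in untreated Pim1-/- cells (log2 differences 0.95 and 0.64), and S100a9 was lower in LPS-treated Pim1-/- cells (-1.17). Their part in the Csf3r level was not tested.

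The GM-CSF receptor chains differed less. Csf2ra (chr19:61223957-61228429, minus strand), the alpha chain, measured 43.7, 36.4 and 47.6 FPKM in untreated WT and 32.1, 33.9 and 34.5 FPKM in untreated Pim1-/- libraries. These groups did not overlap, although the lowest WT library was close to the highest Pim1-/- library, and Csf2ra fell by 0.33 on the log2 scale (limma FDR = 6.7e-04). Csf2rb fell by 0.77, from between 36.1 and 38.6 to between 20.0 and 22.7 FPKM, and Csf2rb2 by 0.71, from between 42.2 and 45.2 to between 24.5 and 29.4 FPKM. Summed as 1 gene, both beta chains fell by 0.75 (limma FDR = 1.7e-08).

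The ligands were at low levels without LPS. Csf1 measured 2.87, 2.85 and 3.24 FPKM in WT and 1.58, 2.09 and 1.89 FPKM in Pim1-/- libraries, without overlap, and fell by 0.49 (limma FDR = 7.6e-06). Csf2 was listed at 0 in every untreated library but the third Pim1-/- library where it was 0.0269 FPKM. Csf3 was listed at 0 in every untreated library.

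**Figure D1:**
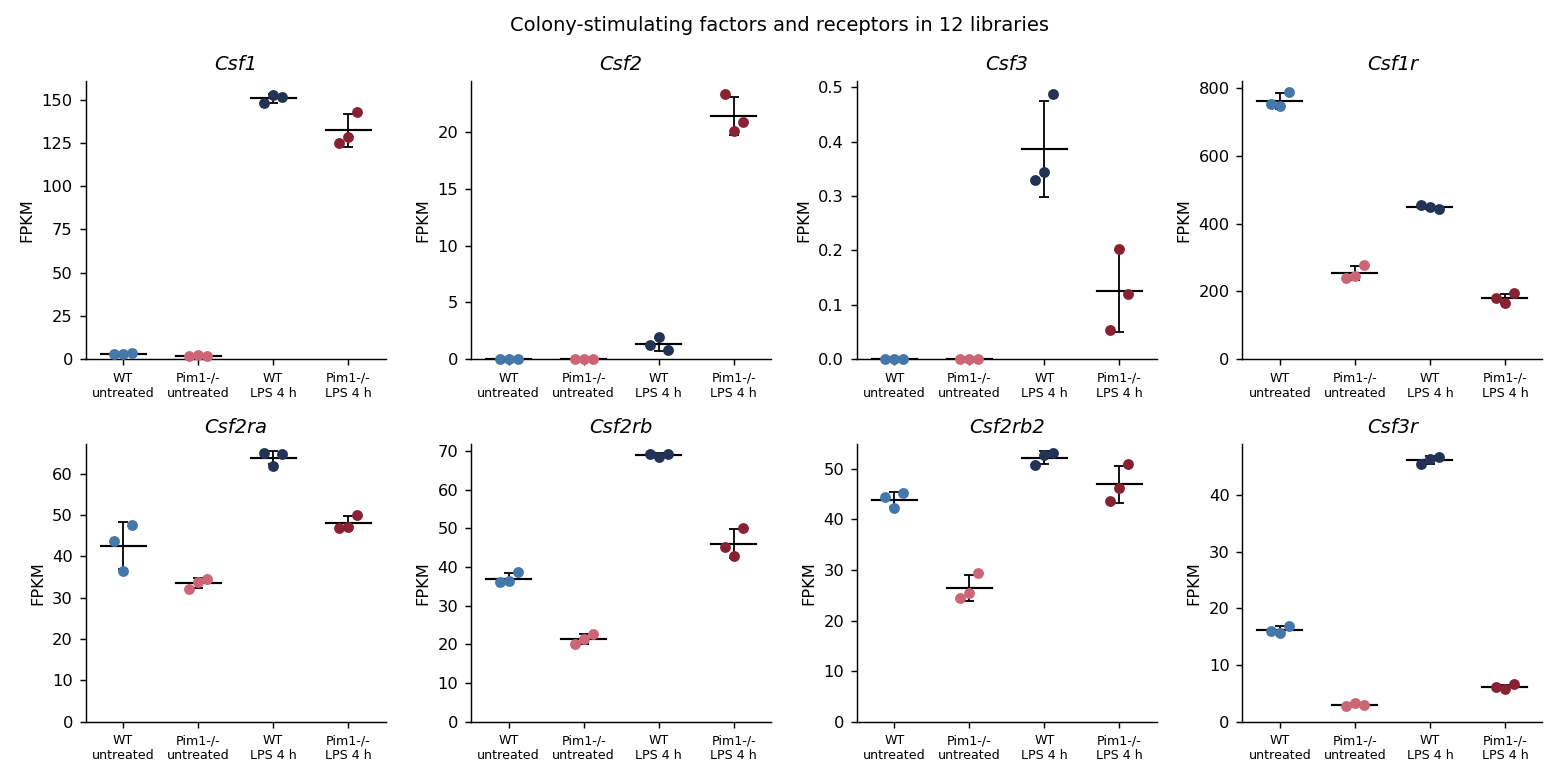
FPKM of each of the 8 genes in the 12 libraries, by genotype and treatment, with points for libraries, a horizontal line for the group mean and bars for the SD (n = 3). Csf1r and Csf3r were lower in Pim1-/- than in WT libraries with and without LPS, whereas Csf2 stood at 20.1 to 23.4 FPKM in LPS-treated Pim1-/- libraries and at no more than 1.91 FPKM in all others.

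LPS raised the ligands in both genotypes. The levels reached differed between genotypes in opposite ways for Csf2 and Csf3, although Csf3 stayed very low. Csf1 rose to 148, 153 and 152 FPKM in WT and 125, 129 and 143 FPKM in Pim1-/- libraries, which is 50.5 and 71.4 times the untreated means. The LPS responses were 5.25 in WT and 5.55 in Pim1-/- cells on the log2 scale, with limma FDR = 3.3e-19 and 2.3e-19. After LPS, Csf1 was lower in Pim1-/- cells by a small margin (log2 difference -0.19, limma FDR = 0.016) without overlap, but was higher by 0.089 (FDR = 0.23) under quantile normalization.

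Csf2 measured 1.22, 1.91 and 0.790 FPKM in LPS-treated WT and 23.4, 20.1 and 20.9 FPKM in LPS-treated Pim1-/- libraries. Every Pim1-/- library was far above every WT library, and the mean was 16.4-fold higher (21.5 ± 1.69 against 1.31 ± 0.566 FPKM, SD, n = 3). On the log2(FPKM + 1) scale the difference was 3.31. Csf2 passed the filter on low values only through the group where it is high, so the test is given from the fit of all genes with no filter, where limma FDR = 8.6e-09. Relative to the value of 0.0269 FPKM in the untreated Pim1-/- library, which stands for at least 1 fragment, and with the estimated depth of each library, these levels correspond to at least 48.0, 72.1 and 28.0 fragments in WT and at least 635, 442.3 and 504.4 fragments in Pim1-/- libraries. Since Csf2 was listed at 0 in untreated cells, no fold change with LPS is given. The fitted responses, 1.18 in WT and 4.47 in Pim1-/- cells, depend on the pseudocount, and that in WT was 0.995, just under the fold threshold, without the second LPS-treated WT library.

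Csf3 was detected only after LPS, at 0.329, 0.343 and 0.487 FPKM in WT and 0.0529, 0.203 and 0.120 FPKM in Pim1-/- libraries. Every WT library was above every Pim1-/- library, the opposite order to Csf2, but all levels were under 0.5 FPKM. The value of the first Pim1-/- library stands for at least 1 fragment. With the estimated depth, the other Pim1-/- libraries were at 3.1 and 2.01 times it, and the WT libraries at 9.01, 9.02 and 12.02 times. Csf3 may thus rest on few fragments. With no filter on low values the log2(FPKM + 1) difference was -0.30 (limma FDR = 2.8e-04), which did not pass the fold threshold.

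Receptor genes did not move alike with LPS. Csf1r fell in both genotypes, to 455, 449 and 443 FPKM in WT and 179, 167 and 194 FPKM in Pim1-/- libraries. The decreases were 0.77 and 0.50 on the log2 scale (limma FDR = 4.5e-09 and 1.1e-06), under the 2-fold threshold, and passed it under quantile normalization, at -1.84 and -1.33. After LPS Csf1r remained lower in Pim1-/- cells, by 1.32 (SE 0.060, limma FDR = 2.2e-11), with no overlap. This value became -0.99 under quantile normalization, just inside 2-fold. Its 4 group levels ran from untreated WT through LPS-treated WT and untreated Pim1-/- to LPS-treated Pim1-/- cells, and no neighbours in this order overlapped.

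Csf3r rose with LPS to 45.5, 46.3 and 46.7 FPKM in WT and to 6.13, 5.76 and 6.57 FPKM in Pim1-/- libraries. The increase was 1.46 in WT, or 0.92 under quantile normalization, and 0.84 in Pim1-/- cells, which did not pass 2-fold. The group means in Pim1-/- cells rose 2.05-fold, and with a pseudocount of 0.1 in place of 1 the increase was 1.01 and was called. LPS-treated Pim1-/- cells therefore held less Csf3r RNA than untreated WT cells, without overlap, and after LPS the gene was at 13.3% of the WT mean in Pim1-/- cells (log2 difference -2.72, SE 0.055, limma FDR = 4.6e-15).

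Csf2ra measured 65.0, 62.0 and 64.8 FPKM in LPS-treated WT and 47.0, 47.2 and 50.1 FPKM in LPS-treated Pim1-/- libraries, a difference of -0.40 with no overlap (limma FDR = 9.7e-05). It rose with LPS by 0.58 in WT and 0.51 in Pim1-/- cells, but under quantile normalization these responses were -0.23 and -0.017. Csf2rb rose from 37.0 ± 1.39 to 68.9 ± 0.444 FPKM in the WT group and from 21.3 ± 1.33 to 46.0 ± 3.69 FPKM in the Pim1-/- group (SD, n = 3). The second response was 1.07 on the log2 scale, and it was 0.66 under quantile normalization and 0.95 with both beta chains summed. After LPS Csf2rb fell by 0.57 in Pim1-/- relative to WT cells (limma FDR = 1.9e-07), without overlap.

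Csf2rb2 was the one receptor gene whose genotypes overlapped after LPS, with 50.6, 52.7 and 53.1 FPKM in WT and 43.6, 46.2 and 50.9 FPKM in Pim1-/- libraries. The difference was -0.15 (limma FDR = 0.0431), and it was 0.070 (FDR = 0.39) under quantile normalization. Its response to LPS was 0.24 in WT, which turned to -0.53 under quantile normalization, and 0.80 in Pim1-/- cells. For Csf2ra and Csf2rb2 the LPS-treated Pim1-/- and the untreated WT libraries also overlapped.

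In counts, 3 of the 7 members tested were called higher with LPS in WT cells (Csf1, Csf2 and Csf3r), where 20.1% of all genes were, and 0 were called lower, where 14.7% were. In Pim1-/- cells 3 were called higher (Csf1, Csf2 and Csf2rb), against 14.6% of all genes, and 0 lower, against 10.4%. By FDR alone 6 members were higher and 1 lower in each genotype. The background was 45.8% higher and 45.4% lower in WT, and 43.2% higher and 44.0% lower in Pim1-/- cells. Between genotypes after LPS, 2 members were called lower (Csf1r and Csf3r), against 5.15% of all genes, and 1 higher (Csf2), against 3.51%. By FDR alone 6 were lower and 1 higher, against 43.4% and 37.6%. Counts that include Csf2 are descriptions, since the filter kept it for its high group. The comparisons share groups, so their counts are not independent of each other.

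The LPS response itself differed between genotypes most for Csf2. The response in Pim1-/- cells minus that in WT cells was 3.30 on the log2(FPKM + 1) scale for Csf2, with limma FDR = 3.4e-07 in the fit with no filter on low values. Its size depends on the pseudocount, being 3.90 with a pseudocount of 0.1. Csf2 was the 1 member called higher, against 2.24% of all genes, and 0 were called lower, against 4.43%. As the filter kept Csf2 for its high group, this count is a description. By FDR alone 5 were higher and 1 lower, against 32.7% and 35.8% of all genes. The others higher were Csf2rb2 at 0.56, Csf1 at 0.30, Csf1r at 0.27 and Csf2rb at 0.19, and Csf3r was lower at -0.62, which turned to 0.072 under quantile normalization. For Csf2ra the difference was -0.08, with a 95% interval from -0.29 to 0.14 (limma FDR = 0.53), and its sign turned under quantile normalization, at 0.22, and without the second untreated WT library, at 0.030.

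**Figure D2:**
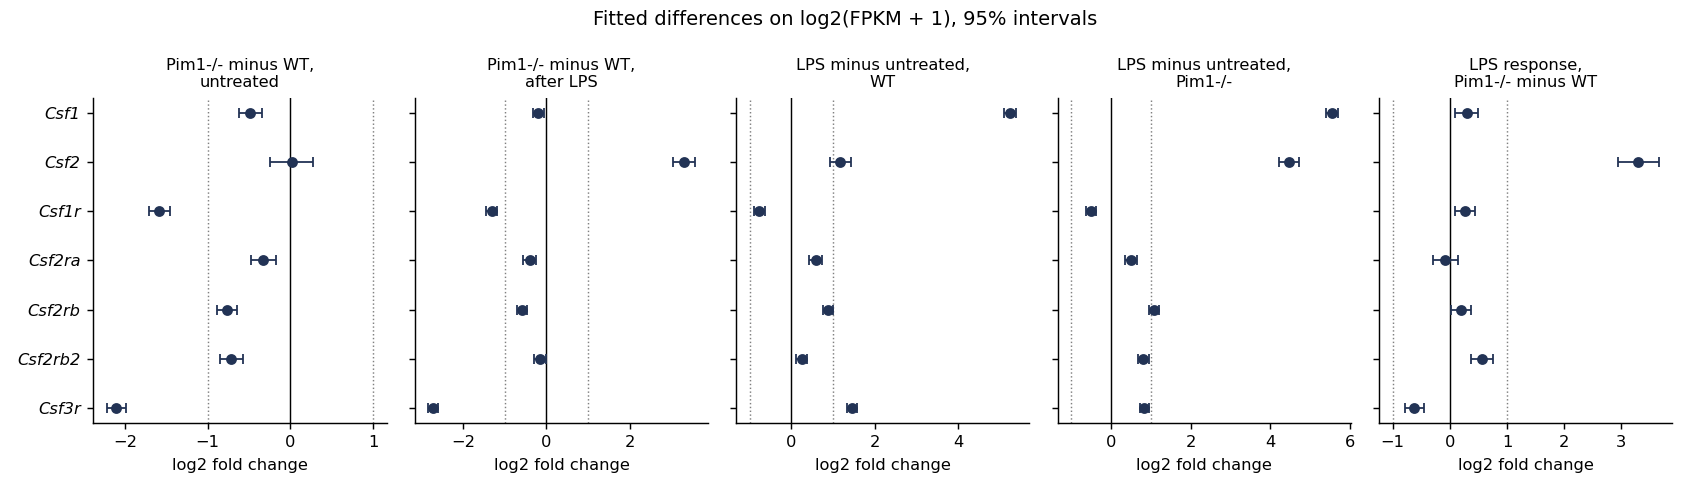
Fitted differences of the 7 tested genes on the log2(FPKM + 1) scale, with 95% intervals from limma, for both genotype comparisons, both LPS responses and the difference between the responses. Dotted lines mark 2-fold, and Csf2 is the one gene to the right of it in the comparison after LPS, at 3.31. The Csf2 intervals come from the fit with the filter, which kept Csf2 for its high group.

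The cultures were next compared for RNA of dividing cells, since M-CSF and GM-CSF act on growth. The 40 listed genes of DNA replication and mitosis all passed the filter. Without LPS all 40 were called higher in the Pim1-/- than in the WT group, against 4.4% of all genes, with a median log2 difference of 2.83, where the median of all genes tested was -0.05. Mki67, a proliferation marker, measured 3.15, 2.87 and 2.69 FPKM in untreated WT and 40.9, 44.0 and 45.5 FPKM in untreated Pim1-/- libraries, and Top2a, the mitotic topoisomerase, 3.06, 3.00 and 2.81 against 66.0, 68.6 and 66.1 FPKM. Neither gene's groups overlapped. Ccna2 and Ccnb1 (cyclins of S phase and mitosis), Rrm2 (deoxynucleotide synthesis), Mcm5 (replication helicase), Ccne1 (cyclin of S-phase entry) and Pcna (replication clamp) were higher by 4.12, 3.19, 3.81, 3.27, 1.75 and 1.97 on the log2 scale.

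After LPS 37 of the 40 were higher in Pim1-/- cells and 2 lower by FDR, against 37.6% and 43.4% of all genes, with 32 called higher, against 3.51%, and a median of 1.86. The 2 lower genes were Mki67 and Ccne1, at -0.12 and -0.38 (limma FDR = 0.0435 and 6.9e-06). By FDR, LPS lowered 28 and raised 9 of the 40 in WT cells, against 45.4% and 45.8% of all genes, with a median of -0.41. In Pim1-/- cells it lowered 35 and raised 4, against 44.0% and 43.2%, with a median of -1.10. Mki67 went against its list in WT cells, rising from 2.90 ± 0.233 to 28.6 ± 0.924 FPKM (SD, n = 3), as did Ccne1 (2.46 on the log2 scale) and Pcna (1.50).

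Csf1r did not follow the dividing state in one order. The mean log2(FPKM + 1) of the 40 genes was 1.74 to 1.85 in untreated WT, 1.56 to 1.58 in LPS-treated WT, 4.59 to 4.64 in untreated Pim1-/- and 3.43 to 3.47 in LPS-treated Pim1-/- libraries. Between genotypes Csf1r was lower where these genes were higher, with and without LPS. Within each genotype, LPS-treated cells held less Csf1r and also less of the 40 genes. Csf2 was listed at or near 0 in the untreated Pim1-/- libraries, which had the highest mean of the 40 genes, and was highest in LPS-treated Pim1-/- libraries, whose mean was the next highest. The 12 libraries fall into 4 separate groups of 3, so no correlation across them was tested, and the part of the dividing state in the levels of Csf1r and Csf2 was not tested.

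**Figure D3:**
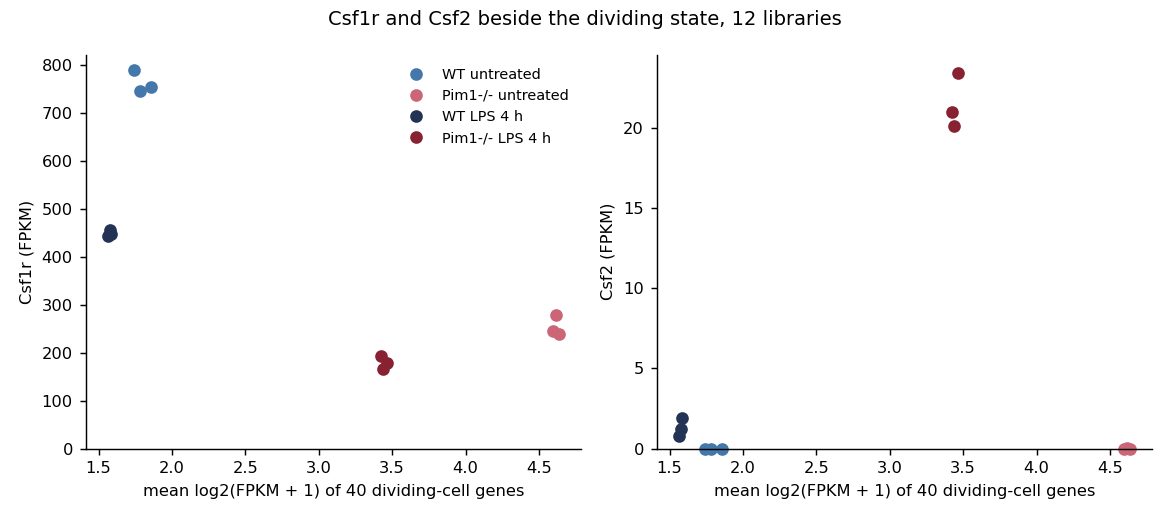
Csf1r (left) and Csf2 (right), in FPKM, against the mean log2(FPKM + 1) of 40 genes of dividing cells, with 1 point per library and a colour per group. The 4 groups stand apart, and the untreated Pim1-/- libraries at 4.59 to 4.64 on the horizontal axis hold 239 to 279 FPKM of Csf1r and almost no Csf2.

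Genes known to respond to growth factor receptors were mostly higher in untreated Pim1-/- cells, but not after LPS. Of 22 such genes 19 were tested, and in untreated Pim1-/- cells 12 were higher and 6 lower by FDR, against 34.6% and 44.2% of all genes. At the call thresholds 7 were higher and 1 lower, against 4.4% and 3.37%. The median was 0.84, where that of all genes was -0.05. After LPS 5 were higher and 10 lower by FDR, against 37.6% and 43.4%. Here 2 were called higher and 4 lower, against 3.51% and 5.15%, with a median of -0.33. Ccnd1, the cyclin D that M-CSF induces, measured 6.50, 6.05 and 5.89 FPKM in untreated WT and 44.4, 42.8 and 39.6 FPKM in untreated Pim1-/- libraries (log2 difference 2.60, limma FDR = 5.5e-15). After LPS it stood at 2.37 ± 0.148 and 4.28 ± 0.237 FPKM (SD, n = 3). Myc, a growth transcription factor, was higher in untreated Pim1-/- cells by 1.15 and had a log2 difference of -0.44 after LPS. Plau (urokinase) and Ccnd2 (another cyclin D) were also higher in untreated Pim1-/- cells, by 1.61 and 1.39, and Egr1, an immediate-early factor, was lower, at -1.43.

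Cish, a feedback inhibitor that STAT5 induces below the GM-CSF receptor, was near 0 without LPS and measured 37.4, 38.5 and 38.5 FPKM in LPS-treated WT and 36.1, 34.4 and 39.6 FPKM in LPS-treated Pim1-/- libraries. These groups overlapped (log2 difference -0.06, limma FDR = 0.38), and Csf2 RNA differed 16.4-fold between them. GM-CSF protein was not measured, and the part of Csf2 in the Cish level was not tested. Socs1 and Socs3, feedback inhibitors of cytokine receptors, were lower in LPS-treated Pim1-/- cells, at -1.49 and -1.30, as was Fos at -1.12, while Dusp4, a MAP kinase phosphatase, was higher at 1.75.

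The 30 genes of receptor signalling were mostly lower in Pim1-/- cells. Without LPS 23 were lower and 3 higher by FDR, against 44.2% and 34.6% of all genes, with a median of -0.42. Of these 1 was called lower, against 3.37% of all genes, Gab1, an adaptor of receptor kinases, at -1.50. After LPS 25 were lower and 1 higher, against 43.4% and 37.6%, with a median of -0.65, and 8 were called lower, against 5.15%. Among the largest differences were those of Pik3cd (a PI3 kinase subunit) at -1.80, Stat3 at -1.64 and Jak1 at -1.30. LPS raised Src by 5.52 and Jak2, the kinase that beta chains bind, by 5.22 in WT cells, and by 4.87 and 4.41 in Pim1-/- cells. Inpp5d, the phosphatase SHIP-1, fell by 4.31 and 3.48. The responses of Fyn, Gab1 and Pik3cd differed between genotypes, by -1.56, 1.30 and -1.19.

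Of 10 transcription factors known to act on the Csf1r gene, 9 were lower and 0 higher by FDR in untreated Pim1-/- cells, against 44.2% and 34.6% of all genes, with a median of -0.59. After LPS 6 were lower and 2 higher, against 43.4% and 37.6%, and the 2 higher were Cebpa at 0.43 and Egr2 at 0.34, named after their values were seen. Spi1, which encodes PU.1, measured 188, 187 and 188 FPKM in untreated WT and 120, 115 and 136 FPKM in untreated Pim1-/- libraries (log2 difference -0.60, limma FDR = 1.5e-07). Maf and Irf8 were called lower, at -1.37 and -1.24, and again after LPS, at -1.94 and -1.93, together with Runx1 at -1.21 and Spi1 at -1.13. With LPS Spi1 rose, to a WT mean of 801 ± 27.1 FPKM and a Pim1-/- mean of 365 ± 18.7 FPKM (SD, n = 3), while Csf1r fell. Cebpa and Fli1 fell by 4.68 and 2.57 in WT cells and by 3.67 and 2.14 in Pim1-/- cells, and Cebpb rose by 3.09 and 3.07.

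**Figure D4:**
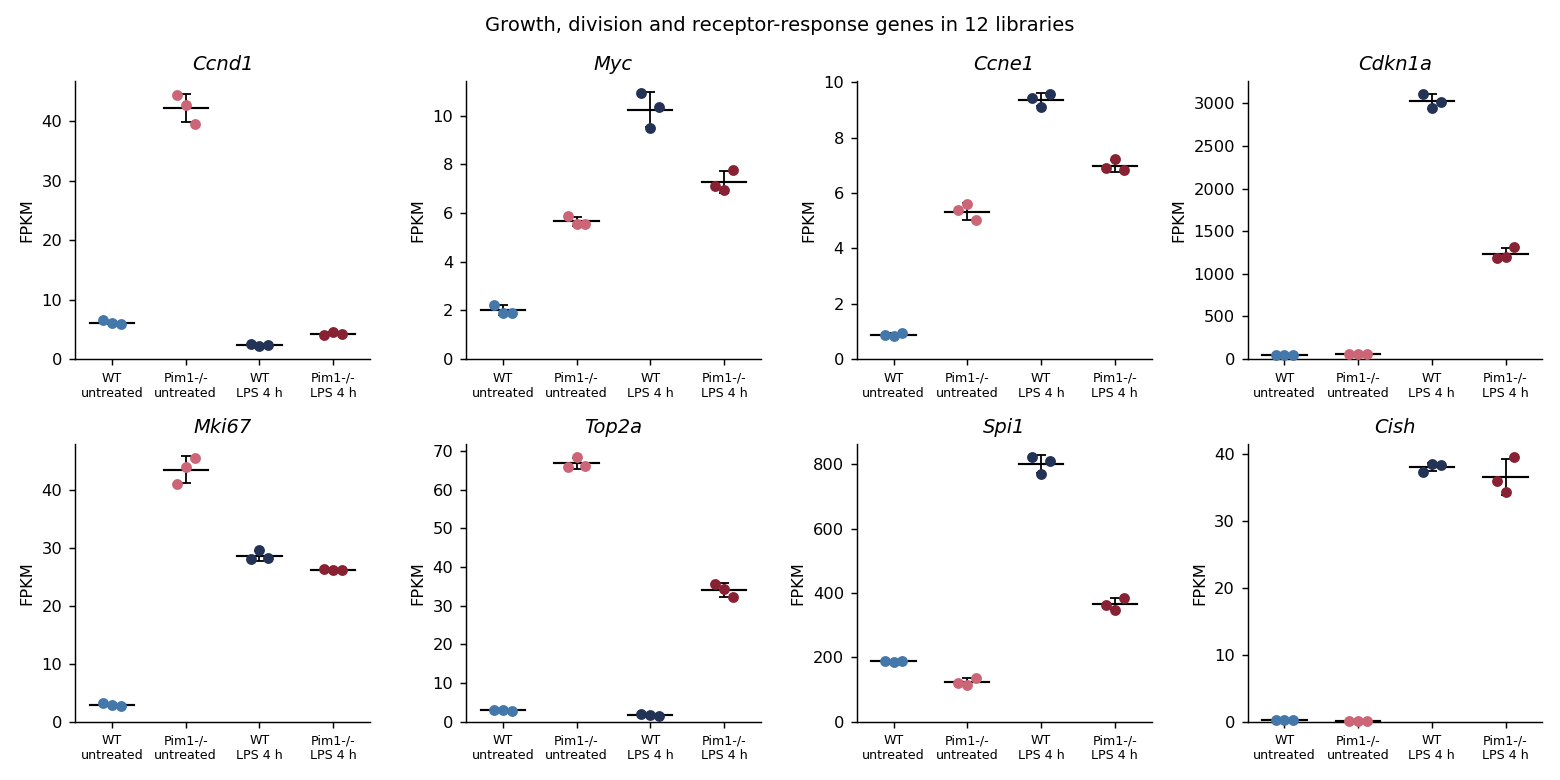
FPKM of 8 genes of growth, division and receptor response in the 12 libraries, with points for libraries, a line for the group mean and bars for the SD (n = 3). Ccnd1 and Top2a were highest in untreated Pim1-/- libraries, Cdkn1a and Spi1 were highest in LPS-treated WT libraries, and Cish overlapped between genotypes after LPS.

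Brakes on division were mixed. Of 10 tested, 7 were lower and 3 higher in untreated Pim1-/- cells by FDR, against 44.2% and 34.6% of all genes, with Gadd45a at -1.14, Btg2 at -1.12 and Cdkn2d at 1.23 called. Cdkn1a, the p21 inhibitor of cyclin-dependent kinases, measured 51.1, 50.8 and 48.9 FPKM in untreated WT and 55.5, 54.7 and 60.2 FPKM in untreated Pim1-/- libraries. It rose with LPS to 3111, 2944 and 3017 FPKM in WT and to 1188, 1203 and 1317 FPKM in Pim1-/- libraries, without overlap (log2 difference after LPS -1.29, limma FDR = 2.7e-12).

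The list of 7 proteins that act on the decay of Csf2 RNA had 5 genes lower and 1 higher by FDR in untreated Pim1-/- cells, against 44.2% and 34.6% of all genes, and 6 lower and 1 higher after LPS, against 43.4% and 37.6%. Zfp36, which encodes tristetraprolin, a protein that binds the AU-rich letters shown for Csf2, stood at 715 ± 34.1 FPKM in LPS-treated WT and 355 ± 34.4 FPKM in LPS-treated Pim1-/- cells (log2 difference -1.01, limma FDR = 1.2e-09, SD, n = 3). Zfp36l1, Zfp36 and Zc3h12a (regnase-1) were called lower without LPS, at -1.90, -1.23 and -1.04. Csf1 and Csf3 also carry ATTTA, but hold 1 and 2 TATTTAT where Csf2 holds 9. After LPS the Csf1 difference was -0.19, which turned to 0.089 under quantile normalization, and Csf3 was at most 0.487 FPKM. The part of the decay genes in the level of any ligand was not tested. All 5 NF-kappa B subunit genes were called higher with LPS in both genotypes, against 20.1% of all genes in WT and 14.6% in Pim1-/- cells. After LPS 4 were lower and 0 higher in Pim1-/- cells by FDR, against 43.4% and 37.6% of all genes. Of these Nfkb2 was called lower, at -1.06, where 5.15% of all genes were.

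Shedding and turnover of Csf1r protein depend on genes such as Adam17, a membrane protease, and Rhbdf2, its partner. Both rose with LPS, by 2.04 and 3.31 in WT and by 2.52 and 2.87 in Pim1-/- cells, and Rhbdf2 was called lower in LPS-treated Pim1-/- cells at -1.03. Protein was not measured. Among kin of the members, Il3 and Il5, ligands that use the beta chain, were listed at 0 in all 12 libraries, and Il5ra in all but 1. Il34, the other ligand of Csf1r, stayed at or below 0.746 FPKM. Il3ra, the interleukin-3 alpha chain, was at 25.0 ± 1.40 FPKM in untreated WT and 14.9 ± 1.84 FPKM in untreated Pim1-/- cells (SD, n = 3), and its difference was -0.71 both without and with LPS.

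The genes next to the members did not all move with them. Il3, 15636 bases from Csf2, stayed at 0. Med24, 962 bases from Csf3, was between 6.03 and 8.61 FPKM in all group means, and Mrps15, next to Csf3r, had differences of 0.33 and 0.20 between genotypes where Csf3r had -2.10 and -2.72. Pdgfrb, next to Csf1r, was lower in LPS-treated Pim1-/- cells at -1.36, but differed by only -0.12 between untreated genotypes. With LPS it rose by 2.80 in WT and 1.56 in Pim1-/- cells, where Csf1r fell. Over the 12 libraries, on log2(FPKM + 1), the genes most like Csf1r by Pearson's r were Psap (0.998), Pld4 (0.997), Laptm5 (0.996), Stab1 (0.995) and Cdk9 (0.995). Those most like Csf2 were Stxbp6 (0.992), Arhgap6 (0.987), Arl5b (0.984), Ube2b (0.982) and Inpp1 (0.978). These r values are descriptions over 4 groups of 3 libraries each.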

How the data were processed

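Stranded mRNA libraries were made from total RNA. The submitters' processing notes name bcl2fastq 2.20.0.422, cutadapt 1.18, TopHat2 2.0.13, Cuffdiff 2.2.1 and the mouse build mm10, whereas the methods text names a rat genome; the gene symbols are those of mouse. The authors deposited 1 column of values per library, whose unit is not written in the column and was read as FPKM, from Cuffdiff and the column sums. FPKM holds no counts, so the depth is unknown. In each library, low values used to estimate it were whole multiples of 1 step within a tolerance of 0.08, and fragment numbers of Csf2 are lower bounds relative to its lowest value.

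No rescaling was applied. A gene was tested if 3 or more libraries had 1 FPKM or more, which held for 10581 of 23997, and limma 3.58.1 in R 4.3.3 was run on log2(FPKM + 1) with a mean for each of 4 groups and a mean-variance trend. The fit was tested on simulated data of 10581 genes, 200 of them changed 3-fold in LPS-treated Pim1-/- cells. It called 200 of these and 0 unchanged genes in the comparison of genotypes after LPS. The changed genes were drawn from those with a mean log2(FPKM + 1) above 3. The check therefore does not cover low genes such as Csf2, or changes near the fold threshold. Python 3.11.15 with pandas 2.3.3 and matplotlib 3.10.9 made the tables and plots. The median coefficient of variation within groups was 3.03% to 5.12%. Same-numbered libraries deviated together in some comparisons. The r over 3646 genes was 0.326 to 0.456 between untreated genotypes and 0.426 to 0.683 between treatments in Pim1-/- cells. In the other comparisons r was as low as 0.0203 and -0.103. The labels give replicate numbers but state no pairing, and a replicate block was an alternative.

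The members and gene lists were chosen with earlier results of these data known. From each list of signalling, feedback, transcription factor, turnover, brake, decay and NF-kappa B genes, at most the 4 called genes with the largest change per comparison were to be named, besides Spi1, Myc, Ccnd1, Cdkn1a, Cish, the kin of the members, 8 dividing genes, the neighbours and the 5 likest genes. Some genes that this rule takes are not reported here. Sequences came from RefSeq (GRCm38.p6) and GENCODE M21, and the NF-kappa B consensus replaced a looser pattern after its matches had been seen. Alternatives were another pseudocount, other filters, 2 scalings, the compared groups alone, no trend, the block, leaving out each library and, added after seeing the data, both beta chains summed.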

Additional observations from a re-analysis of the deposited data

Results flagged for a closer look

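LPS responses differed by genotype in 6 of the 7 members tested, by the limma test of the difference between responses at an FDR under 0.1. Csf2 is counted here as a description only, since the filter kept it for its high group. On the log2(FPKM + 1) scale the response in Pim1-/- minus that in WT cells was 3.30 for Csf2, which was also past 2-fold. It was 0.56 for Csf2rb2, 0.30 for Csf1, 0.27 for Csf1r and 0.19 for Csf2rb, and -0.62 for Csf3r. Since 32.7% of all genes tested were higher and 35.8% lower by the same FDR, these smaller differences are common in the data.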

How the results depend on the processing

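The calls of the members mostly kept their side of the thresholds, with 682 of the gene-by-setting values unchanged in direction and call, 8 reversed, 5 no longer called and 3 newly called. Under quantile normalization the median of all genes moved to -0.18 for LPS in both genotypes. There the log2 values that reversed were those of Csf1 (0.089) and Csf2rb2 (0.070) between genotypes after LPS, Csf2ra (-0.23) and Csf2rb2 (-0.53) with LPS in WT, Csf2ra with LPS in Pim1-/- (-0.017), and Csf2ra (0.22) and Csf3r (0.072) for the difference in response. For Csf2ra the difference in response ran from -0.16 to 0.030 over libraries left out, and it reversed without the second untreated WT library. With a pseudocount of 0.1 Csf3r passed 2-fold with LPS in Pim1-/- cells (1.01). The cause was not tested. By FDR under 0.05 with no fold threshold, 6, 7, 7, 7 and 6 members passed in untreated genotypes, genotypes after LPS, LPS in WT, LPS in Pim1-/- and the difference in response, in place of 2, 3, 3, 3 and 1. Except for untreated genotypes, these counts include Csf2, which the filter kept for its high group. The share of all genes at that FDR is not given. At FDR under 0.1 the shares lower were, in that order, 44.2%, 43.4%, 45.4%, 44.0% and 35.8% of all genes. The shares higher were 34.6%, 37.6%, 45.8%, 43.2% and 32.7%, so passing without a fold threshold was common. In the same order, the medians of the dividing genes were 3.54, 2.95, -0.83, -1.20 and -0.62 with a pseudocount of 0.1 and 3.18, 1.75, -0.20, -1.44 and -1.28 under quantile normalization. With a filter of 5 FPKM, which left 37 genes, the first 4 were 2.90, 1.93, -0.48 and -1.06. Leaving out 1 library at a time gave 2.81 to 2.91, 1.84 to 1.93, -0.48 to -0.35, -1.12 to -1.03 and -0.84 to -0.75. The member counts stayed at 2, 3, 3 and 1, except LPS in WT, at 2 to 3. With the replicate block, which pairs same-numbered libraries, the counts were 2, 3, 3, 3 and 1 and no member's call changed. The unknown depth limits Csf3 and Csf2 in WT cells most.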
